A study of Caenorhabditis elegans with 4 samples.

Results

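Nuclear hormone receptor genes make up 274 of the 19985 protein-coding genes of Caenorhabditis elegans in Ensembl release 115 (WBcel235). They were taken as every protein-coding gene with an nhr symbol and a number, together with daf-12, fax-1, odr-7, sex-1 and unc-55, a rule that uses gene names only and was set with earlier results of these data known. Chromosome V carries 167 of them, and the other 107 lie on IV (33 genes), X (27), I (24), II (15) and III (8).

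Binding was measured by ChIP-seq against a tagged CES-1 in 1 group of 4 biological replicate libraries. The animals were whole L4 larvae of mixed sex from strain OP174, which carries the unc-119(ed3) allele and the transgene wgIs174, a ces-1::TY1 EGFP FLAG fusion together with unc-119. All 4 libraries thus share the unc-119 allele and a CES-1 that is expressed from a transgene. CES-1 is a Snail-family zinc finger protein known for its part in the death of the sister cells of the NSM neurons, and Snail proteins bind forms of the E-box, CANNTG. The labels differ between pairs of libraries: replicates 1 and 2 carry a size range of 150 to 350 bp, while replicates 3 and 4 name a generic microtip for sonication. There was no second condition, so no test was made: counts and shares of receptor genes are set beside those of all protein-coding genes, and spread is the SD over the 4 libraries.

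Nuclear hormone receptors are transcription factors with a zinc finger DNA-binding domain and a domain that in many of them binds a small lipophilic ligand such as a sterol or a fatty acid. The family is greatly expanded in nematodes: most members are related to HNF4 of vertebrates, and many sit in clusters on chromosome V. A smaller set has recognisable counterparts in flies and vertebrates, including DAF-12, which binds the steroid-like dafachronic acids and sets the choice between dauer arrest and reproductive growth.

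All peak lists used were on ce11. The IDR list (irreproducible discovery rate, a filter for peaks that rank alike in replicates) holds 1033 regions, of which 862 were overlapped by a region of every library. The pooled list holds 25493 regions from all libraries together, most of them weaker. Each library also has a list of 30000 regions. Signal is the submitters' own score for a region, its scale is not stated, and it is used here only within one list, where rank 1 is the strongest region. The depth of the libraries is unknown. A region was assigned to a gene when its summit lay in the promoter window, which runs from 1000 bp before to 200 bp past each annotated transcript 5′ end of the gene.

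The 101 bases around 6 summits are shown first, because they are the sites the strongest receptor gene results rest on: the IDR summits at nhr-48, nhr-40 and nhr-10, and the strongest pooled summits among the remaining receptor genes, at nhr-142, nhr-1 and nhr-88. They were read from the RefSeq WBcel235 genome on the strand of the gene, 5′ to 3′, with any CANNTG in capitals.
nhr-48 (chrX:15707635-15707735, plus strand): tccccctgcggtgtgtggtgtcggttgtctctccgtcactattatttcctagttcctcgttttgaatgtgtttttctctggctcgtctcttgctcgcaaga
nhr-40 (chrX:2605002-2605102, plus strand): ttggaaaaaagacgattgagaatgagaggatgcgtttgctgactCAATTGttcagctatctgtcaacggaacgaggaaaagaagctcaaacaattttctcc
nhr-10 (chrIII:7115112-7115212, minus strand): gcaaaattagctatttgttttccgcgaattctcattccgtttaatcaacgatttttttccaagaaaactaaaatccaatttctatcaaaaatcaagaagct
nhr-142 (chrV:5790984-5791084, minus strand): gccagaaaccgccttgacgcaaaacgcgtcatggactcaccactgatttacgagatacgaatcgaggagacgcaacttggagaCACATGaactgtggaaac
nhr-1 (chrX:17519460-17519560, plus strand): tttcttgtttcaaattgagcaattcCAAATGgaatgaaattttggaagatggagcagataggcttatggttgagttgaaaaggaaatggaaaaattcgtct
nhr-88 (chrII:2976739-2976839, plus strand): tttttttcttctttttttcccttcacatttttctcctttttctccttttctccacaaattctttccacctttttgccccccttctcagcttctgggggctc
The window at nhr-40 holds CAATTG, that at nhr-142 holds CACATG and that at nhr-1 holds CAAATG. The windows at nhr-48, nhr-10 and nhr-88 hold no CANNTG.

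CES-1 peaks of the IDR list were at few receptor promoters. Of the 274 receptor genes, 1 (0.365%) had an IDR summit in its promoter window, against 534 of 19985 protein-coding genes (2.67%). That gene was nhr-48, a receptor of the group that holds DAF-12 and NHR-8 and is related to the vertebrate vitamin D and xenobiotic receptors. With summits inside the gene body counted as well, nhr-40 and nhr-10 were added, which makes 3 receptor genes (1.09%) against 3.86% of protein-coding genes. Within 5000 bp of the gene or in it, 13 receptor genes (4.74%) had an IDR summit, against 10.6% of protein-coding genes. All of these shares lie below the share of protein-coding genes, and the first rests on a single gene.

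The nhr-48 peak (chrX:15707513-15707856) lies between genes, and its summit is 528 bp upstream of the nearest nhr-48 5′ end. Its pooled signal was 47.3, rank 879 of 1033 in the IDR list, whose lowest signal is 44.2 and whose median is 59.2. The overlapping library regions ranked 225 in replicate 1, 2127 in replicate 2 and 1651 in replicate 3, and replicate 4 had none among its 30000. The peak therefore sat in the lower part of the IDR list and was missing from 1 library.

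The nhr-40 peak (chrX:2604880-2605223) lies in a coding exon near the far end of the gene, which spans chrX:2594003-2606732, with its summit 5644 bp downstream of the nearest nhr-40 5′ end. The 5′ end of another protein-coding gene, T03G6.1, is nearer to this summit, at 3176 bp. NHR-40 is known for its part in muscle and embryonic development. The pooled signal was 51.8, and the overlapping regions ranked 2161, 446, 10895 and 7937 in replicates 1 to 4. Replicates 1 and 2 ranked it higher than replicates 3 and 4 did.

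The nhr-10 peak (chrIII:7114990-7115333) lies in an intron, 276 bp downstream of the 5′ end and so just outside the promoter window. NHR-10 takes part in switching on the propionate breakdown shunt when vitamin B12 is low. Its pooled signal was 45.3, with overlapping regions at ranks 9861, 743, 4242 and 16508 in replicates 1 to 4. Replicate 2 ranked it far above the other libraries.

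Just outside the upstream edge, summits lay at -1082 bp from the 5′ ends of both nhr-8 (signal 44.3) and nhr-280 (45.1), where a minus sign means upstream. NHR-8 acts in cholesterol balance and resistance to xenobiotics. Both of these peaks are nearer to another protein-coding gene: the nhr-8 peak lies 144 bp from the 5′ end of mrps-24, and the nhr-280 peak 586 bp from that of pals-22. The strongest IDR peak near any receptor gene lay 2133 bp upstream of nhr-34, with a signal of 86.6, rank 190 in the IDR list, and overlapping regions at ranks 514, 120, 5383 and 727 in replicates 1 to 4. The peak upstream of nhr-88, at 2636 bp, had a signal of 52.5 and library ranks of 126, 1835, 9606 and 800. No protein-coding gene has a 5′ end nearer to either of these peaks than the receptor gene does.

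The other nearby IDR peaks lay downstream. fax-1, which is needed for axon pathfinding, had a pair of them, with summits 7379 bp (signal 48.5) and 7787 bp (56.9) downstream of its 5′ end, the farther one 53 bp from the 5′ end of the non-coding gene F56E3.20. The peak past the end of nhr-3 (signal 55.4) lies 8 bp from the 5′ end of the non-coding gene H01A20.4. The tailless counterpart nhr-67 had one at 9373 bp, nearest to cpt-2 (524 bp), and nhr-60 had one nearest to haf-3 (168 bp). nhr-84 and nhr-102 share one peak (signal 50) that lies 42 bp from the 5′ end of the snoRNA gene T06C12.16. Each of the downstream peaks in this group is thus nearer to the start of another gene than to that of the receptor gene.

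**Figure D1:**
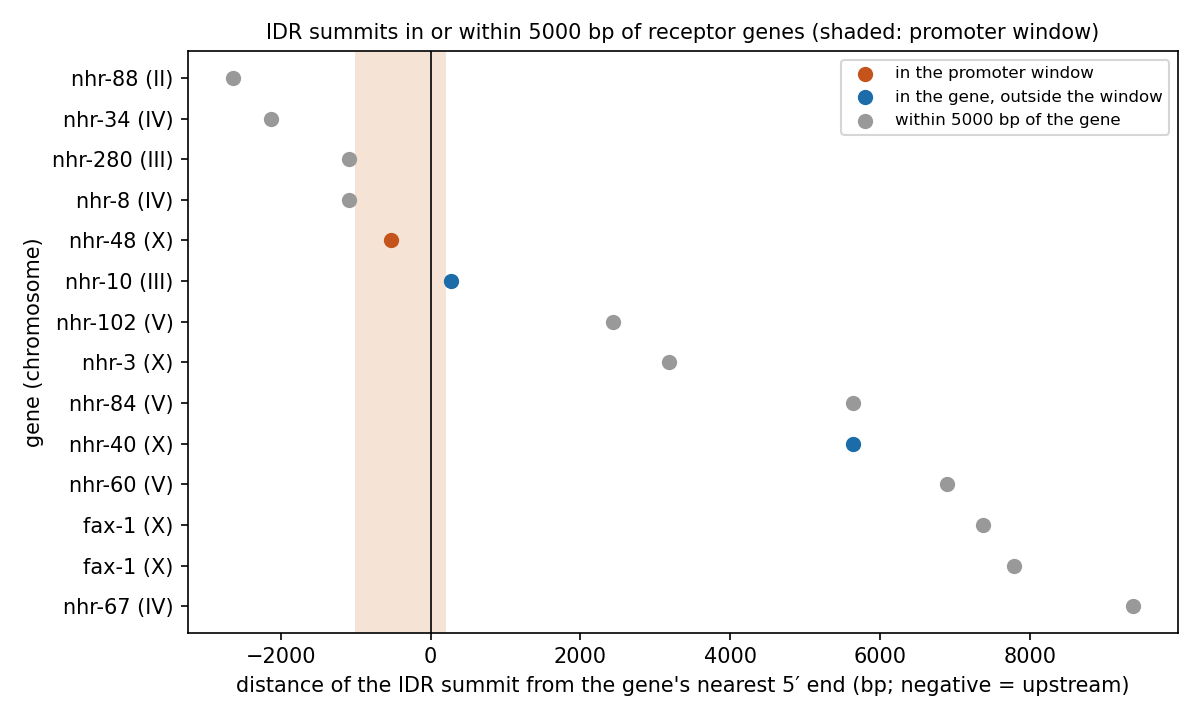
Distance in bp from the nearest 5′ end of each receptor gene (rows, with chromosome) to the IDR summits in the gene or within 5000 bp of it, negative for upstream; the shaded band is the promoter window and colours give the position relative to the gene. Only the nhr-48 summit, at -528 bp, falls in the band, and those of nhr-8 and nhr-280 fall at -1082 bp.

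Weaker regions were about as common at receptor promoters as at other promoters. The pooled list put a summit in the windows of 98 receptor genes (35.8%), against 36.7% of protein-coding genes. The difference of -0.97 points turned with the setting: it was 3.44 points with a window of 2000 bp upstream and 500 bp downstream, 3.24 by nearest 5′ end and 3.04 when any base of the region counted, but -2.39 with 500 and 100 bp, -2.79 among genes with a single 5′ end window and -6.19 among pooled regions above the median signal. Replicate 1 had a region at 117 receptor genes (42.7%, against 41.4% of protein-coding genes). Replicate 2 had one at 108 (39.42%, against 41.6%), replicate 3 at 105 (38.32%, against 39.4%) and replicate 4 at 103 (37.59%, against 40.2%). The receptor share averaged 39.51 ± 2.26% and the share of protein-coding genes 40.64 ± 1.04% (SD, n = 4 libraries each). The difference of -1.14 ± 1.77 percentage points is smaller than its own spread, and it was positive in replicate 1 and negative in the other libraries.

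The strongest regions of each library were at receptor promoters less often in 3 of 4 libraries. Among the 2000 strongest regions, replicate 1 gave 8 receptor genes (2.92%, against 4.96% of protein-coding genes) and replicate 2 gave 5 (1.82%, against 5.52%). Replicate 3 gave 8 (2.92%, against 3.78%) and replicate 4 gave 12 (4.38%, against 4.25%). The mean was 3.01 ± 1.05% for receptor genes and 4.63 ± 0.77% for protein-coding genes (SD, n = 4). The difference of -1.62 ± 1.64 points was about the size of its spread. Set against protein-coding genes of V, receptor genes of V differed by -0.91 ± 1.16 points. Receptor genes elsewhere differed from protein-coding genes elsewhere by -0.73 ± 2.26 points. Both of these differences are smaller than their spread. The regions that receptor genes did have were of lower rank. The median rank of the strongest region in the window was 13605 for receptor genes and 9628 for protein-coding genes in the pooled list, 13472 and 11500 in replicate 1, 15655 and 11405.5 in replicate 2, 13642 and 12523.5 in replicate 3, and 14352 and 12348 in replicate 4. The order was the same in all 5 lists.

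In 1 or more libraries, 26 receptor genes (9.49%) had a region among the 2000 strongest, against 11.6% of protein-coding genes. In 2 or more libraries it was 7 (2.55%), against 4.32%, and no receptor gene reached 3 libraries. The 7 were nhr-1, nhr-14, nhr-40, nhr-48, nhr-49, nhr-56 and nhr-142, chosen for naming after their values were seen. In 5 of these 7 (71.4%) the pair of libraries was replicates 1 and 2 or replicates 3 and 4. For these pairs the labels give the same kind of entry on fragments. Among the 485 protein-coding genes with exactly 2 such libraries the share was 47.2%. The shares count genes, and the regions of a pair need not be at the same site. At nhr-14 and nhr-56 the strongest window regions of the pair did not overlap, while at nhr-40 and nhr-142 they did. At nhr-1 the strongest ones did not, but another replicate 2 region, at rank 1298, overlapped the replicate 1 region of rank 1471.

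Receptor promoters seldom had regions in all 4 libraries, and less often than the promoters of all protein-coding genes did. Of the 274 genes, 60 (21.9%) had a region in no library, 78 in 1, 74 in 2, 41 in 3 and 21 (7.7%) in all 4; among all protein-coding genes 22.0% had none and 10.3% had one in all 4. Regions of all 4 libraries that overlapped one another were found at 5 receptor genes (1.82%), against 5.05% of protein-coding genes. These were nhr-255, nhr-47, nhr-14, nhr-100 and nhr-49. Around the strongest pooled region of each of the 98 genes, 6 (6.1%) had overlapping regions in all 4 libraries, against 15.7% of the 7341 protein-coding genes with a pooled region.

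**Figure D2:**
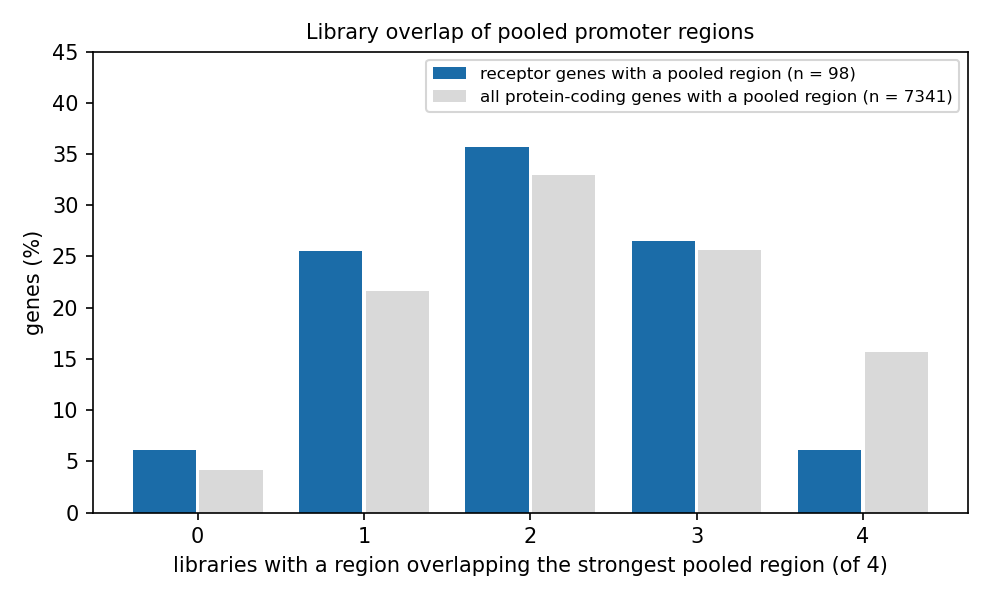
Share of genes (%) by the number of libraries, 0 to 4, with a region overlapping the strongest pooled region of the promoter window, for the 98 receptor genes (blue) and 7341 protein-coding genes (grey) that have such a region. All 4 libraries overlapped at 6.1% of receptor genes and 15.7% of protein-coding genes.

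After nhr-48, the strongest pooled region in a receptor promoter window was at nhr-142 on chromosome V (chrV:5790862-5791205). Its signal was 40.4, rank 1235 of 25493, below the IDR list. The overlapping regions ranked 925, 976, 6333 and 7487 in replicates 1 to 4. The replicate 3 region (chrV:5791203-5791558) reaches only the edge of the pooled region, and the library regions did not all overlap one another. The pooled region also lies in the window of F44E7.9, and nhr-142 does not have the nearest 5′ end. On X, the nhr-1 region had a signal of 37.3, with library ranks of 1471, 1298 and 8833 in replicates 1, 2 and 4 and no region in replicate 3. Replicates 1 and 2 thus ranked both of these regions higher than replicates 3 and 4 did. Another region of the nhr-1 window ranked 837 in replicate 2.

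The nhr-88 region (signal 34.7, chrII:2976617-2976960) lies in an intron, with library ranks of 7254, 1303, 6080 and 6377. The nhr-255 region (signal 34.2) had ranks of 2887, 1639, 16854 and 15303, again with replicates 1 and 2 the higher. The nhr-47 region on V (signal 30.1), whose summit falls in an exon of a non-coding gene, had ranks of 1435, 9742, 2576 and 1447. Replicate 2 was the low one among these, and the region is shared with dnj-19. The replicate 4 region of rank 1447 was not assigned to the nhr-47 window, where the strongest region of that library ranked 25319. nhr-184 (signal 29.7) shares its region with nstp-8 and had no overlapping region in replicate 1. Its ranks in replicates 2 to 4 were 1753, 7713 and 17793.

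The rest of the 20 strongest ran from a signal of 28.7 at nhr-32 to 20.1 at nhr-40, in the order nhr-32, nhr-143, nhr-202, nhr-45, nhr-49, nhr-14, nhr-42, nhr-10, nhr-28, nhr-214, nhr-56, nhr-158 and nhr-40. At several of them 1 library stood high. nhr-202 ranked 796 in replicate 4 but 13046 in replicate 2 and 20168 in replicate 3, and nhr-56 ranked 1481 in replicate 4 with no overlapping region in the others. nhr-42, from the list of stress-related receptors, had a region in every library, at ranks of 3482, 29248, 21114 and 24846, with only replicate 1 high.

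**Figure D3:**
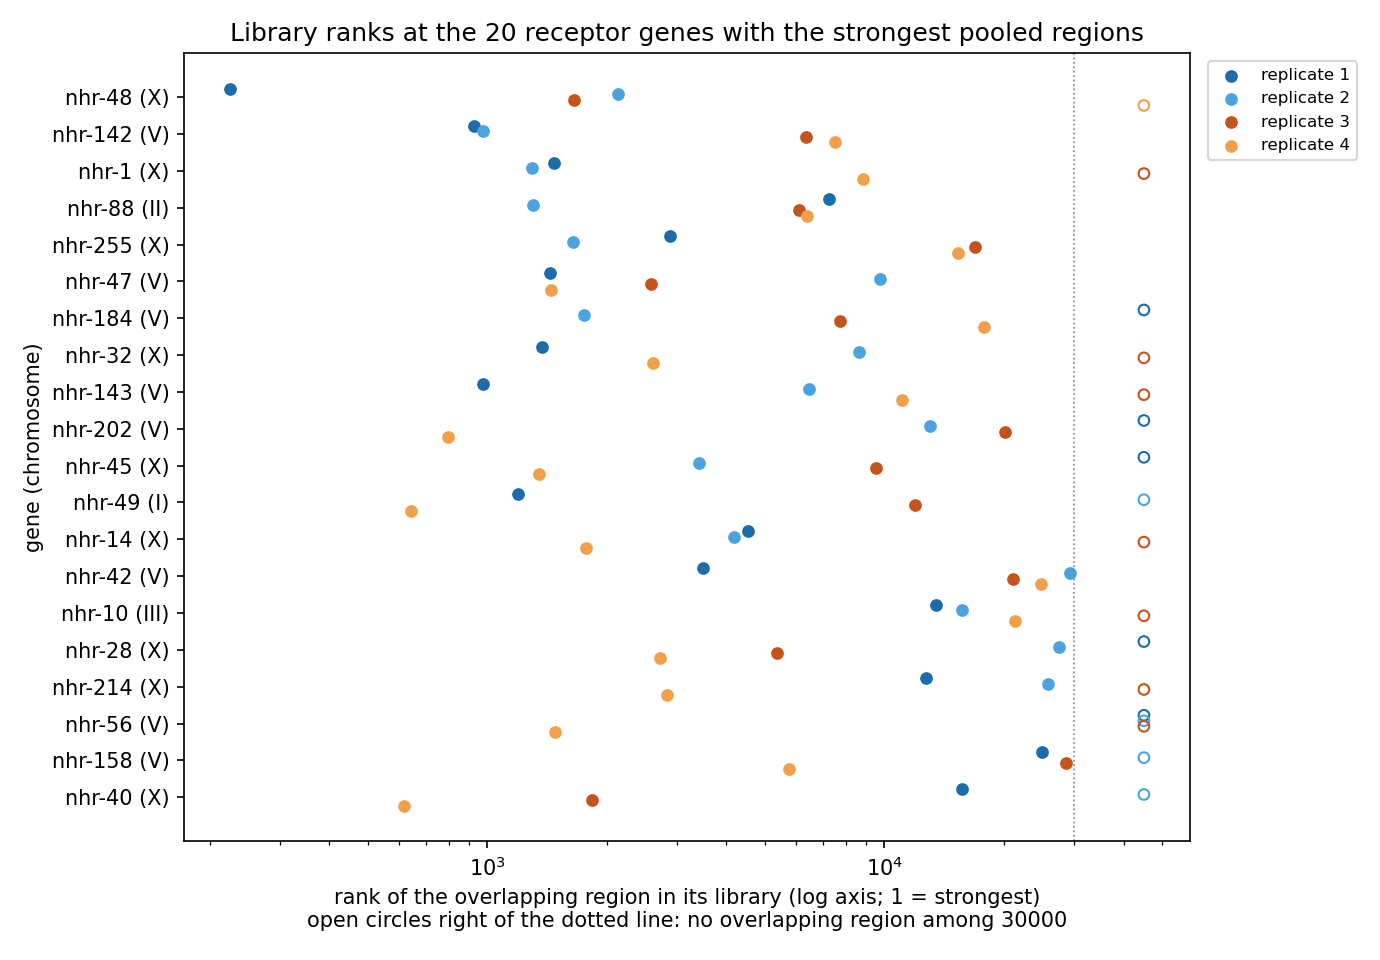
Rank of the overlapping region in each library (log axis, 1 = strongest of 30000) for the 20 receptor genes with the strongest pooled regions, strongest at the top, with chromosome; open circles mark a library with no overlapping region. At nhr-48 replicate 1 ranked 225 and replicate 4 had no region, and at most genes the libraries differ by several-fold in rank.

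Receptors with counterparts in flies or vertebrates had pooled regions at 11 of 17 promoters (64.7%), against 36.7% of protein-coding genes, and at 51.5 ± 13% of promoters in single libraries (SD, n = 4). This list was chosen with earlier results of these data known and has few members. Some of them have long windows (7499 bp at daf-12, 5363 bp at nhr-41, 4357 bp at nhr-23), beside a mean of 1459 bp for protein-coding genes. Others, such as nhr-67 and nhr-69, have 1201 bp. Several, among them daf-12, nhr-14 and nhr-48, lie on X. The part of window length and of chromosome in this share was not tested. For the lists, a rank is that of each library's strongest region in the window, and regions of different libraries need not be at one site. Only nhr-48 had an IDR summit. The HNF4-like receptor gene nhr-14 had a pooled signal of 22.6 and its strongest window regions ranked 4524, 4172, 301 and 1777 in replicates 1 to 4. The replicate 3 region is at another site of the window and does not overlap the pooled region, which only replicates 1, 2 and 4 overlapped. At the site where regions of all 4 libraries overlap one another, the ranks were 4829, 12297, 301 and 27121. daf-12 had a pooled signal of 16.4 and ranks of 18012, 7392, 13107 and 9275, from a window of 7499 bp with several 5′ ends. The daf-12 regions of the 4 libraries did not all overlap one another.

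nhr-23, the ROR counterpart that drives molting, had a pooled signal of 16.6 and ranks of 11866, 10105 and 18474 in replicates 1, 3 and 4, with none in replicate 2. nhr-25, the FTZ-F1 and SF-1 counterpart that acts in the epidermis and in molting, had a region in replicate 1 only, at rank 2171. nhr-85, related to E75 and Rev-erb, was likewise seen in replicate 1 only (rank 8922), and the GCNF counterpart nhr-91 in replicate 4 only (rank 12392). nhr-41, the DHR78 counterpart, was seen in every library, at ranks of 7964, 21900, 11046 and 3811, and its window of 5363 bp held 5 pooled regions, the most of any receptor gene.

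The remaining counterparts had weak pooled regions or none. nhr-64 (signal 13.5) and nhr-69 (12.7), both HNF4-like, nhr-111 (10.7), nhr-67 (10.5) and the NR4A counterpart nhr-6 (10.8), which acts in the spermatheca, lay below the pooled median of 14.2. So did fax-1 (11.8), with regions in replicates 1 and 2 at ranks of 27315 and 17309. nhr-8 had no pooled summit in its window, with ranks of 15811, 4316 and 2968 in replicates 1 to 3. sex-1, an X-linked signal that counts X chromosomes by repressing xol-1, and unc-55, the COUP-TF counterpart that sets the synaptic pattern of VD motor neurons, had a region in no library. odr-7, which specifies the AWA olfactory neurons and stands in another list, also had none.

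Metabolic receptors had pooled regions at 4 of 10 promoters (40%, beside 36.7% of protein-coding genes). nhr-49, a regulator of fat use and desaturation, was the strongest, at a signal of 24.4, and its strongest window regions ranked 1194, 14298, 8569 and 643 in replicates 1 to 4. The window of 3719 bp holds 4 pooled regions, and the strongest of them was overlapped in replicates 1, 3 and 4 but not in replicate 2. Regions of all 4 libraries overlapped one another at another site of the window, where they were weak, at ranks of 27720, 18807, 22654 and 23464. nhr-10 had a second, weaker summit at -843 bp (signal 22.3), and nhr-68, its partner in the propionate shunt, had a signal of 14 with regions in replicates 2 and 4. nhr-79 had a signal of 13.8. nhr-114, which protects the germ line when vitamin B12 is short, had a region in all 4 libraries, at ranks of 20548, 9406, 20817 and 24995, though no pooled summit. nhr-13, nhr-31, nhr-62 and nhr-66 had regions in 1 to 3 libraries, and nhr-80, an NHR-49 partner in fat desaturation, had none.

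The other lists of receptors are as small. Stress, xenobiotic and immune receptors had pooled regions at 3 of 7 promoters (42.9%, beside 36.7% of protein-coding genes): nhr-49, nhr-42 and the HIF-1 target nhr-57 (signal 15.4), while nhr-112 and nhr-176 had a region in no library. Neuronal and developmental receptors had them at 6 of 13 (46.2%, beside the same 36.7%), the strongest at nhr-40 (20.1), where the window ranks were 8686, 5633, 1832 and 617 in replicates 1 to 4, with only the last pair at the strongest pooled region. Replicate 1 also had a weaker region overlapping that nhr-40 pooled region, at rank 15658. In the neuronal and developmental list, nhr-2, odr-7, sex-1 and unc-55 had a region in no library.

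Genes around the receptors were counted from lists of genes that are no members. Of 8 ligand-synthesis and coregulator genes, 3 had a pooled summit (37.5%, beside 36.7% of protein-coding genes) and none an IDR summit (beside 2.67%): the acetyltransferase gene cbp-1 (signal 41.6), the DAF-12 corepressor gene din-1 (38.0) and the NHR-49 coactivator gene mdt-15 (17.5). At din-1 the libraries ranked 2833, 2611, 132 and 2876 in replicates 1 to 4, and their regions overlapped one another. daf-9, whose enzyme makes dafachronic acid, had a region in no library. Of 10 metabolic target genes, 5 had a pooled summit (50%, beside 36.7%) and 1 an IDR summit (beside 2.67%). That one, hach-1 of the propionate shunt, had a signal of 88.0, rank 181, and ranked 497, 204 and 98 in replicates 1, 2 and 4 with none in replicate 3. The desaturase gene fat-7 and the propionate shunt gene acdh-1 had a region in no library.

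Chromosome V members were compared with the others. No member of V had an IDR summit in its window (0 of 167), against 1 of 107 elsewhere (0.935%); among protein-coding genes the shares were 1.78% on V and 2.97% elsewhere. Near or in the gene, 3 of 167 members on V (1.8%) and 10 of 107 elsewhere (9.35%) had one, beside 7.81% and 11.5% of protein-coding genes. The 3 on V are nhr-60, nhr-84 and nhr-102, and the last pair share one peak. The pooled list had a summit at 54 of 167 members on V (32.3%) and at 44 of 107 elsewhere (41.1%), a difference of -8.79 points, beside 30.5% and 38.8% of protein-coding genes. That difference was -1.21 points with a window of 500 bp upstream and 100 bp downstream and -4.1 points among genes with a single 5′ end window. Protein-coding genes of V thus also had fewer regions than those elsewhere, in each of these 3 counts.

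In single libraries the V members had 41.92, 39.52, 38.32 and 35.93% with a region in replicates 1 to 4, and the other members 43.93, 39.25, 38.32 and 40.19%. The difference averaged -1.5 ± 2.1 points (SD, n = 4), smaller than its spread and without one sign in all libraries. Its sign also turned with a window of 500 bp upstream and 100 bp downstream (1.07 points), in the outer parts of the chromosomes (4.3 points) and among genes with a single 5′ end window (5.11 points). Protein-coding genes of V differed from those elsewhere by -5.71 ± 0.62 points, with the same sign in every library. Against protein-coding genes of V, the V members were higher by 5.03, 2.62, 2.58 and 0.03 points in replicates 1 to 4. Among the 2000 strongest regions the shares were 2.1 ± 0.77% on V and 4.44 ± 1.6% elsewhere, a difference of -2.34 ± 1.05 points that was negative in all 4 libraries, beside -2.17 ± 0.25 points for protein-coding genes. This contrast rests on 2 to 5 V members a library and on the X members among the others. Members on I to IV had 1.25, 1.25, 2.5 and 3.75% in replicates 1 to 4 (2.19 ± 1.2%), beside 2.4, 1.2, 1.8 and 2.99% of V members, so that without X the mean shares differed by less than their spread and V was the higher in replicate 1.

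With each chromosome cut into 3 equal parts, V members lie in the outer parts in 126 of 167 cases (75.4%) and other members in 73 of 107 (68.2%), beside 64% of protein-coding genes on V. In the outer parts 38.89 ± 1.94% of V members and 34.59 ± 3.93% of other members had a library region. In the middle part it was 39.02 ± 9.96% of V members and 52.94 ± 8.66% of other members (SD, n = 4 each). Protein-coding genes had 32.87 ± 0.7% on V and 40.4 ± 0.91% elsewhere in the outer parts, and 42.56 ± 2.16% on V and 44.76 ± 2.59% elsewhere in the middle part. The middle values of members vary most between libraries: V members reached 53.66% in replicate 1 but stood between 31.71 and 36.59% in the others.

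Pooled shares were lower where receptor genes are clustered and where sequence is repeated. On V, 122 members had another receptor gene within 10000 bp, and 29.5% of them had a pooled summit, against 40% of the 45 without. Elsewhere the shares were 32.4% of 37 members with such a neighbour and 45.7% of 70 without. In single libraries the order on V was the other way, with 39.5 ± 4.1% of clustered V members and 37.2 ± 3.8% of those without a neighbour having a region, while elsewhere it was 35.1 ± 4.4% and 43.2 ± 5.8% (SD, n = 4). In some windows under 90% of 32-base words are unique in the genome. They held a pooled summit at 4 of 20 V members (20%) and 3 of 14 other members (21.4%). Where 90% or more are unique, the shares were 34.0% on V and 44.1% elsewhere. Windows under 90% unique made up 12% of V members, 13.1% of other members and 14.7% of protein-coding genes. Their part in the V difference was not tested. Neither split was made for all protein-coding genes, so these shares describe receptor genes without that background.

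Members on X had the highest pooled share of any chromosome, a comparison chosen after the values were seen. The pooled list had a summit at 16 of 27 (59.3%), against 39.1% of protein-coding genes of X. In replicates 1 to 4, the shares of X members with a region were 66.67, 62.96, 40.74 and 51.85%, against 46.36, 44.2, 40.21 and 40.64% of protein-coding genes of X. The X members were higher in each library, by little in replicate 3. Among the 2000 strongest regions the X members had 11.11, 7.41, 11.11 and 14.81%, and protein-coding genes of X 6.19, 5.57, 4.25 and 4.32%, a difference of 6.03 ± 3.62 points (SD, n = 4) that rests on 2 to 4 genes a library.

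The windows of X members are also longer, since many of them have several 5′ ends: the mean length was 1858 bp, against 1482 bp for protein-coding genes of X. Among genes whose window has the length given by a single 5′ end, 7 of 13 X members (53.8%) had a pooled summit, against 33.2% of protein-coding genes of X, and the 2000-strongest difference was 3.96 ± 6.25 points. Over all chromosomes the mean window was 1527 bp for receptor genes and 1459 bp for protein-coding genes, and with such single windows 28.2% of receptor genes and 31.0% of protein-coding genes had a pooled summit. In the 2000 strongest regions of 1 or more libraries stood 8 of 27 X members (29.63%), beside 12 of 167 V members (7.19%). The share was 7.85% of protein-coding genes of V and 11.6% of all protein-coding genes. That of protein-coding genes of X is not given here.

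The other chromosomes went either way. The pooled shares of members and of protein-coding genes were 20.8% (5 of 24) and 40.7% on I, 40% (6 of 15) and 33.6% on II, 37.5% (3 of 8) and 44.0% on III, and 42.4% (14 of 33) and 38.0% on IV. Members on I to IV had a library region at 36.25, 31.25, 37.5 and 36.25% of promoters in replicates 1 to 4 (35.31 ± 2.77%), against 41.84 ± 0.95% of protein-coding genes there (SD, n = 4). The share of V members given above was higher than that of members on I to IV in 3 of 4 libraries.

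**Figure D4:**
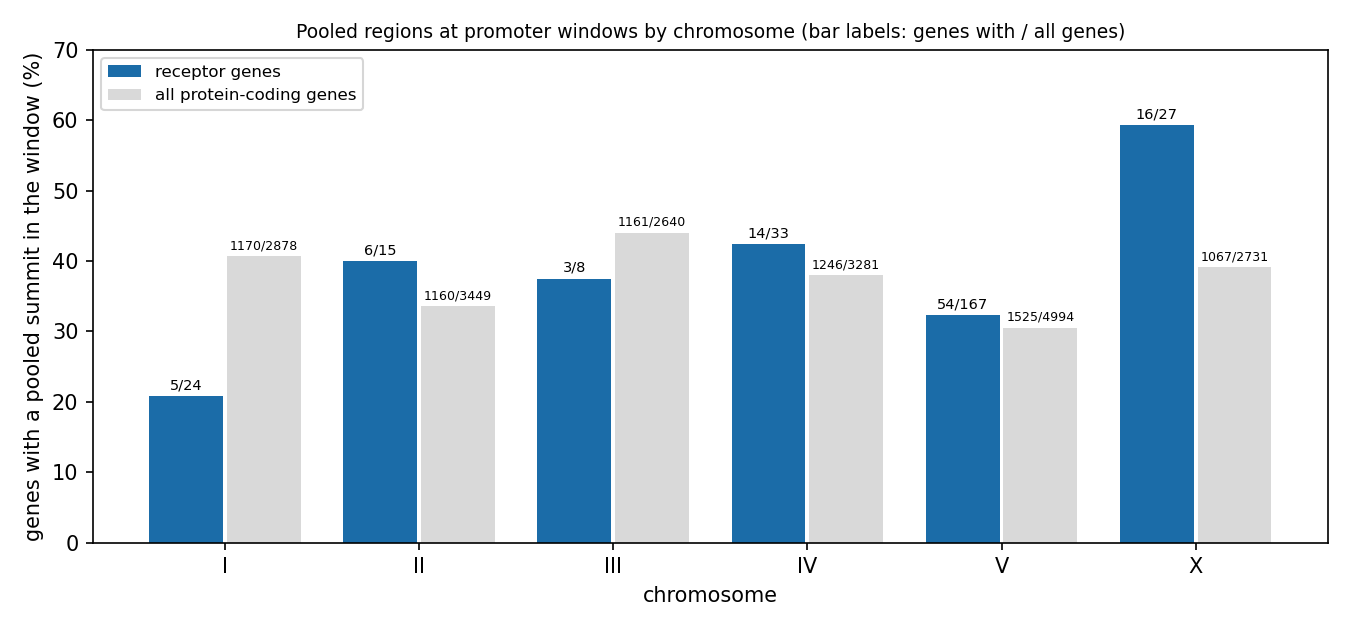
Share of genes (%) with a pooled summit in the promoter window by chromosome, for receptor genes (blue) and all protein-coding genes (grey); bar labels give genes with a summit over all genes. Receptor genes reach 59.3% on X and 20.8% on I.

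**Figure D5:**
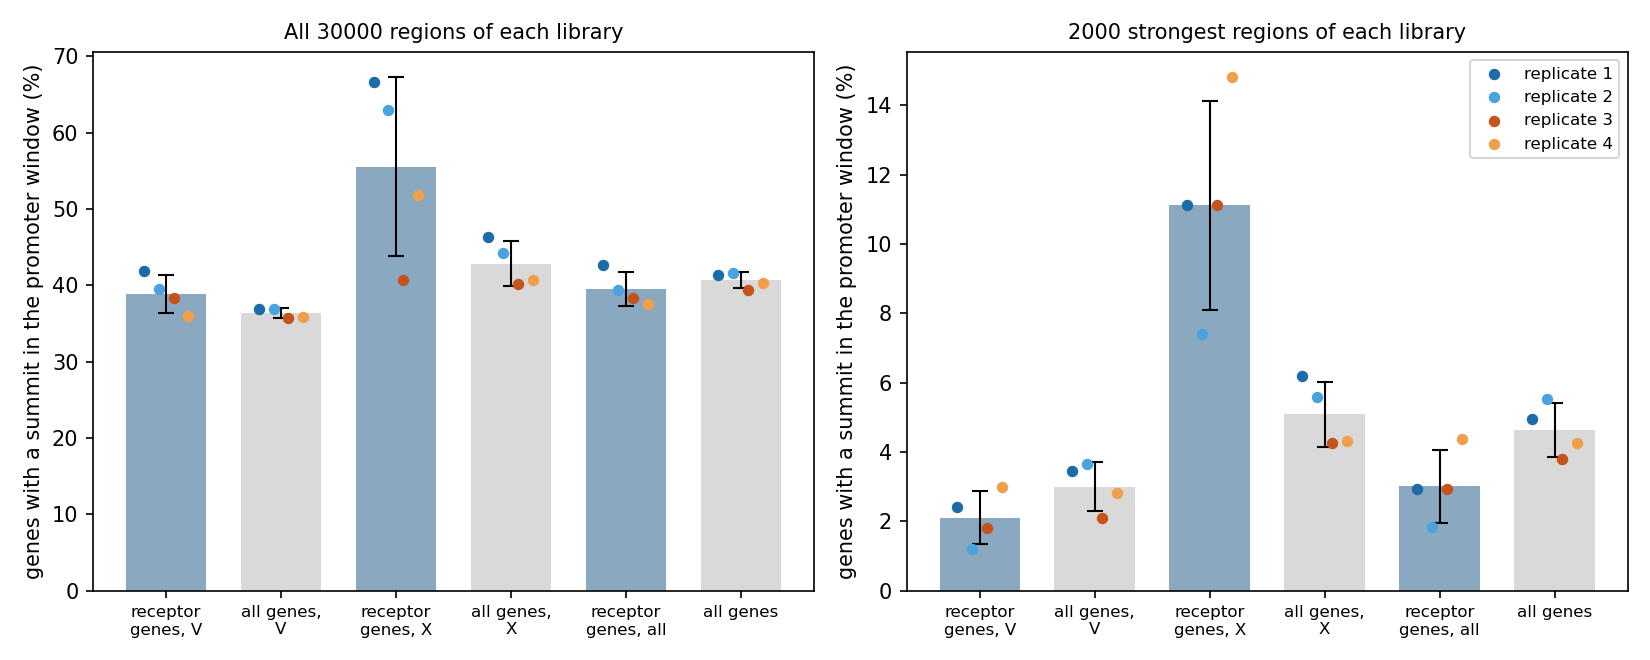
Share of genes (%) with a summit in the promoter window in each library (points), with the mean over 4 libraries (bars) and SD (error bars), for receptor genes and all protein-coding genes of V, of X and of all chromosomes; the left panel uses all 30000 regions of a library and the right panel the 2000 strongest. X receptor genes average 55.56% at left and 11.11% at right, and V receptor genes 38.92% and 2.1%.

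The 130 pooled regions in receptor windows were all distinct, with none shared by a pair of receptor genes, though 8 genes share their strongest region with another protein-coding gene. Their summits lay at a median of -330 bp from the 5′ end, beside -304 bp for all protein-coding genes, with 81.5% of them upstream (beside 85.3%) and 33.8% within 200 bp (beside 35.4%). By position, 50.8% lay between genes, 25.4% in introns, 12.3% in coding exons, 6.2% in 5′ UTRs, 3.8% in exons of non-coding genes and 1.5% in 3′ UTRs. For all protein-coding genes these were 53.8, 22.4, 11.1, 5.2, 3.1 and 4.3% in the same order. Of the 98 genes, 94 had their own 5′ end as the nearest one.

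Sequence around the summits was searched on both strands, within 50 bp of the summit. CANNTG was found in 38 of 130 receptor regions (29.2%), against 29.7% of pooled regions in the windows of protein-coding genes and 30.1% of all pooled regions. CAGGTG, one form of CANNTG and a Snail-type E-box, was in 6 (4.6%), against 2.0% and 2.1%. The 6 lay at nhr-100, nhr-180, nhr-79, nhr-59, nhr-78 and nhr-182, with pooled signals of 14.8 down to 10.6, none among the 20 strongest. AGGTCA, the half-site many nuclear receptors bind, was in 5 (3.8%), against 2.0% and 2.2%, at nhr-202, nhr-57, nhr-20, nhr-41 and nhr-32. All of these are small counts, and a match is a description of the letters only.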

How the data were processed

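ChIP-seq peak lists of 4 biological replicate libraries were used as deposited, in a 10-column layout on ce11. Per the file records, a list for each library, a pooled list and an IDR-thresholded list were deposited. The signal of each region is the submitters' own value from the deposited lists, and was used only to rank regions within one list. The caller, aligner and IDR threshold were not given in the sources used here. The ce10 lists and the control library were not analysed here. Read depth is unknown, so no interval for read counts was computed. Intervals for counting error over genes were used to judge pooled differences under other settings.

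Genes and transcript 5′ ends came from Ensembl release 115 (WBcel235), and sequence from the RefSeq WBcel235 genome. Coordinates are 1-based. Summits were assigned to promoter windows with Python 3.11.15, numpy 2.4.6 and pandas 2.3.3, and plots used matplotlib 3.10.9. The assignment was tested on simulated regions.

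Members and lists were chosen with earlier results of these data known. Named genes are the 5 without an nhr symbol, the counterpart list, genes with an IDR summit in the window or gene, the 20 strongest pooled, those overlapping in all 4 libraries, and the 5 strongest on V. Others were named as neighbours of IDR peaks, from the fixed lists or after their values were seen. Of the 9 ligand-synthesis and coregulator symbols, 8 were matched. Alternatives changed the window, the assignment, the lists and the libraries used. The comparison on X and the restriction to single windows were added after the data were seen.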

Additional observations from a re-analysis of the deposited data

Results flagged for a closer look

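Among 33 sets of 4 library ranks examined, 2 held a library far from the others, and chance flags about 1 in 20 such sets. At nhr-28, the strongest region in the promoter window ranked 19605 in replicate 2, while the other libraries ranked theirs 3179, 5375 and 2717; these regions are not all at one site. At nhr-47, the region overlapping the strongest pooled region ranked 9742 in replicate 2, while the other libraries ranked theirs between 1435 and 2576. The replicate 4 region among these was not assigned to the nhr-47 window, where the strongest replicate 4 region ranked 25319.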

How the results depend on the processing

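Of the recomputed values, 28 moved and 49 stayed within limits, which were the SD over libraries, 1.5 times a count or, for pooled differences, the 95% interval for counting error over genes. That interval is wide, and pooled differences within it changed in size and sign as given with the results. With a window of 500 bp upstream to 100 bp downstream the IDR count was 0, the pooled count 62, the library share 25.18%, the count overlapping in all libraries 2 and the V difference 1.07 points. With 2000 and 500 bp they were 4, 151, 60.49%, 10 and close to the reported value, and the 2000-strongest share was 4.29%. The 4 genes were nhr-48, nhr-10, nhr-8 and nhr-280, as also when any base of the region counted (4 genes, library share 47.63%). The IDR count was 0 above the median signal of that list and 0 among peaks overlapped in every library. Regions above the median signal of the pooled list gave 45 genes, with a difference from protein-coding genes of -6.19 points. The 10000 strongest regions gave a library share of 13.96%, 0 genes overlapping in all 4 libraries and a V difference of -4.31 points. That difference was -3.94 points by nearest 5′ end and 4.3 in the outer parts of the chromosomes. With an overlap of 50% of the shorter region, 3 genes remained. With single windows the library share was 31.62%, the 2000-strongest share 1.76% and the V difference 5.11 points.

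Leaving out each library in turn gave 9 to 14 genes overlapping in the remaining libraries, as fewer libraries have to overlap. The library share was then 38.44 to 40.15%, the 2000-strongest share 2.55 to 3.41%, the V difference -2.09 to -0.58 points and the X difference among the 2000 strongest 4.54 to 7.43 points. No paired analysis was possible because there is only 1 group of samples, with no second condition to pair; differences between sets of genes were taken within each library. The sign of the V difference in library shares thus depended on the window and on chromosome position.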
